A study of Mus musculus with 4 samples.

Results

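The neurotrophin ligands and receptors described here are 6 genes, Bdnf, Ntf3, Ntrk2, Ntrk3, Ngfr and Sort1, taken by symbol from the 26301 genes with an identifier in the count table of the series. RNA was sequenced from mouse embryonic stem cells (ESCs) of 2 genotypes, wild type (WT, line N6) and Rest-/- (line N8), with 2 biological replicates of each. REST is a zinc finger repressor that binds the RE1 DNA element and keeps many neuronal genes low in other cells, and the series compared its loss with WT. Both lines grew in serum and leukemia inhibitory factor on irradiated mouse embryonic fibroblasts and were moved to gelatin to remove these feeders before RNA was taken. Each genotype is represented by 1 line, so the genotype and the line cannot be told apart, and p-values measure the spread between the replicate cultures of these lines.

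Neurotrophins are secreted growth factors that support the survival, growth and synaptic function of neurons. Their mature forms bind the receptor tyrosine kinases of the Trk family, BDNF preferring TrkB (Ntrk2) and neurotrophin 3 preferring TrkC (Ntrk3), whereas all of them bind the p75 neurotrophin receptor (Ngfr). Uncleaved proneurotrophins bind p75 together with sortilin (Sort1), which also sorts neurotrophin precursors inside the cell. Bdnf is transcribed from several promoters, each joined to a shared coding exon, and is a known REST target in neural cells.

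The RE1 element is shown first, because it is the sequence that REST binds and because 1 of the 6 genes holds a close match beside a start site. A motif was read from the mm9 genome sequence at 750 sites, 1 for each REST-bound region on a list of the study that was held here only in part. The list is described as holding regions with repeated RE1 motifs, found by a motif search, so the motif describes such sites and not all REST-occupied ones. At 15 of its 19 positions a single base was present in at least 0.65 of the sites, and the other positions are written N. Matches were searched on both strands of mm9. With no mismatch at these 15 positions, the motif was found 181 times in the genome and 0 of the 6 genes held it within 20 kb of an annotated start site, against 0.608% of 22367 protein-coding genes. With up to 1 mismatch it was found 1098 times, and Bdnf alone of the 6 genes had a match within 20 kb, against 3.37% of protein-coding genes. The Bdnf match lay within 1 kb of a start site, a window chosen after the data were seen, in which 0.635% of protein-coding genes had a match. The motif and the Bdnf site are given 5′ to 3′, the site with 4 flanking bases on each side in lower case and the 19 motif positions in capitals.
RE1 motif: GGNGCTGTCCNNGGTNCTG
Bdnf site: cgctGGCTCTGTCCAAGGTGCTGaatg

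The Bdnf match occupies chr2:109516204-109516222 on the minus strand of mm9, inside the Bdnf gene (chr2:109514857-109567204, plus strand). Its 1 mismatch to the motif is G4T, with the motif base first and positions counted from 1 at the 5′ end of the motif. It lies 159 bp downstream of the start site of transcript Bdnf-002, in the non-coding part of the first exon of 3 annotated transcripts (Bdnf-002, Bdnf-003 and Bdnf-004) of 10. The 10 transcripts use 7 start sites. Counts per gene do not show which of these start sites gave the reads.

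**Figure D1:**
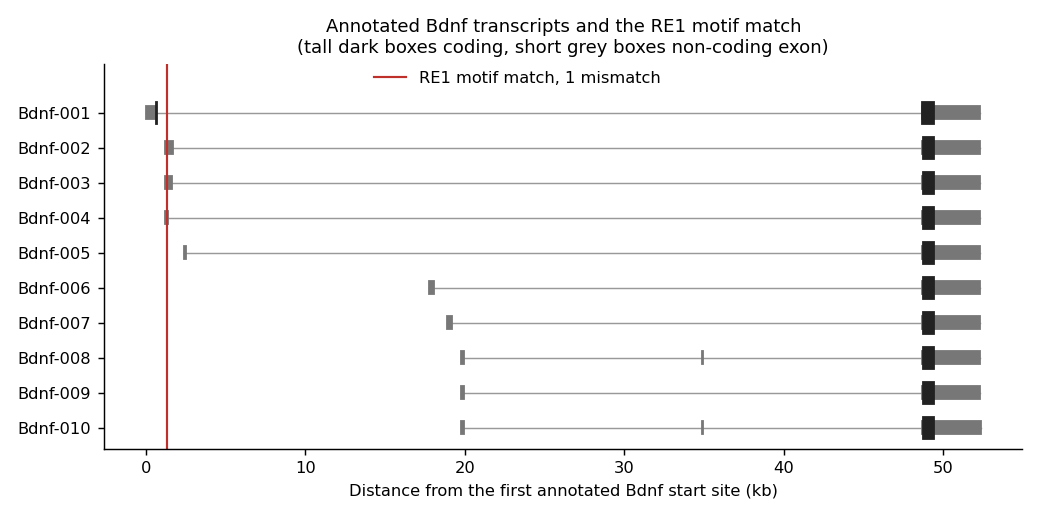
Annotated Bdnf transcripts (rows) by distance in kb from the first annotated start site, with coding parts as tall dark boxes, non-coding exon parts as short grey boxes and introns as lines. The red line marks the RE1 motif match with 1 mismatch, which crosses the first exon of 3 of the 10 transcripts.

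The other 5 genes had no match with up to 1 mismatch within 20 kb of a start site. The motif recovered 13.2% of the 750 sites it was read from with no mismatch, 37.2% with up to 1 and 59.2% with up to 2, so that the lack of a match says little about REST occupancy. The nearest match with up to 1 mismatch was 69141 bp from a Sort1 start site, 430715 bp from an Ntrk3 start site and 827456 bp or more from those of Ntrk2, Ngfr and Ntf3. When 2 mismatches were allowed, a setting added after the data were seen, the motif occurred 9764 times in the genome and 21.6% of protein-coding genes had a match within 20 kb. Still only Bdnf of the 6 genes had one in that window. A single such match lay inside another of the 6 genes, in an intron of Ntrk3 at chr7:85584704-85584722 on the minus strand, 62005 bp from the nearest start site, with the mismatches G2A and C17A.
Ntrk3 intron match: cagaGACGCTGTCCGTGGTAATGgcag

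A motif match describes the sequence and is not evidence of binding. Separately, the study lists Bdnf among the genes near a REST-bound region in ESCs. That gene list gives no positions, so the bound region cannot be set against the match. Of the 89 tested genes with a match of up to 1 mismatch within 1 kb of a start site, 59 (66.3%) had both Rest-/- libraries above both WT libraries, and the median log2 fold change of the 89 was 0.97. In the wider windows these values were lower, with 97 of 203 genes (47.8%) and a median of 0.36 within 5 kb, and 165 of 509 genes (32.4%) and a median of 0.13 within 20 kb. Among all 15444 genes tested, 16.5% had both Rest-/- libraries above both WT libraries and the median was -0.0047. Bdnf ranked at place 39 of the 89 genes by log2 fold change, and at place 69 of the 509.

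Library totals ranged from 22293966 to 30953863 counts. Levels are given as CPM, counts scaled to a common library size after trimmed-mean (TMM) normalization, and 3 counts in a library, taken as the detection floor, corresponded to 0.0969 to 0.135 CPM. This floor covers counting error only. The targeted gene, Rest, had 7908 and 6233 counts in WT against 4244 and 3890 in Rest-/- ESCs, or 244 ± 16.1 against 169.9 ± 8.03 CPM (SD, n = 2). It was lower in both Rest-/- libraries but not past the test (log2 fold change -0.52, SE 0.13, adjusted p = 0.526 by edgeR's quasi-likelihood test with Benjamini-Hochberg adjustment). Counts over the whole gene do not show which Rest exons the reads came from. All 10 pluripotent cell markers were detected, including Pou5f1, Nanog and Sox2, with summed levels of 5171 and 5042 CPM in WT and 4314 and 4538 CPM in Rest-/- ESCs. Of these, 4 (Nanog, Zfp42, Klf4 and Fgf4) were lower in both Rest-/- libraries than in both WT libraries, beside 15.4% of all genes tested. The adjusted test called 0 of the 10, beside 0.0583% of all genes tested. The largest differences among them were in Zfp42 (log2 fold change -1.36) and Fgf4 (-0.98).

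Bdnf was the member with separated genotypes, with about 2.26-fold more RNA in Rest-/- ESCs, and no member passed the genome-wide test. Ngfr and Sort1 were the abundant members, and their WT and Rest-/- libraries overlapped. Ntf3 and Ntrk3 were close to the detection floor and Ntrk2 had 0 counts in every library. Of the 6 genes, 3 (Bdnf, Ngfr and Sort1) had enough counts to be tested, 1 had both Rest-/- libraries above both WT libraries and 0 had both below. The background for these patterns was 16.5% and 15.4% of the 15444 genes tested. At an adjusted p under 0.05, edgeR's quasi-likelihood test called 0 of the 3 tested members and 9 genes in all, which is 0.0583% of those tested. At an unadjusted p under 0.05 it called 1 of the 3, Bdnf, against 6.71% of all genes tested. The edgeR exact test with tag-wise or common dispersion and DESeq2 also called 0 members, where they called 1.79%, 2.23% and 1.54% of all genes. With the replicate number as a block, a link that the labels do not state, 3 members passed (2 higher, 1 lower) beside 17% of all genes (8.47% higher, 8.5% lower). In these bulk samples, a change in the number of cells that make an RNA and a change in RNA per cell cannot be told apart.

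**Figure D2:**
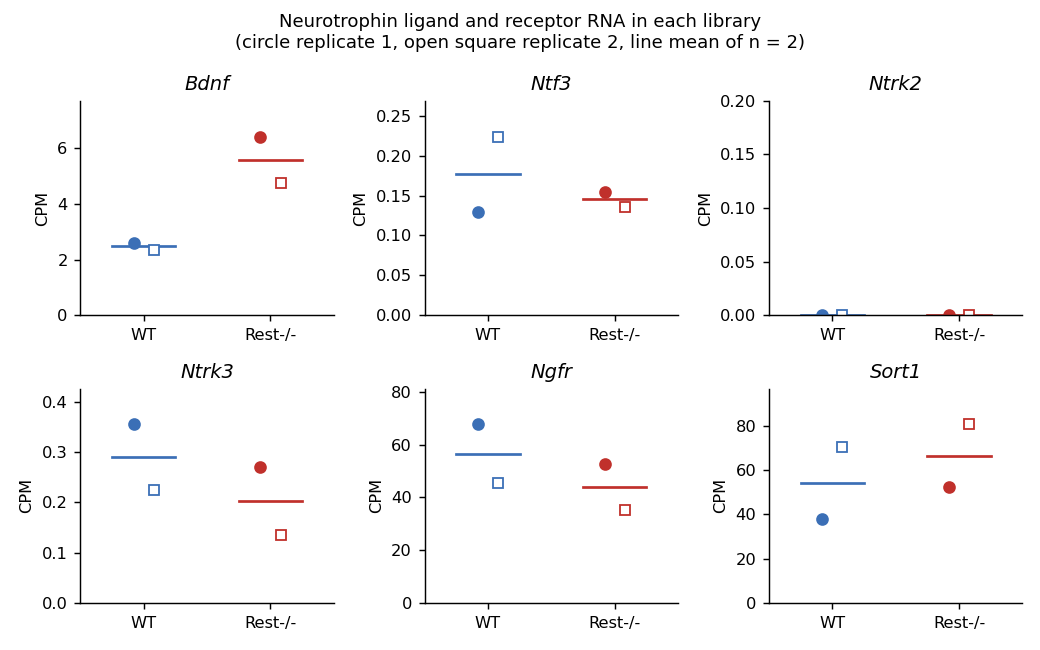
Level in CPM (y axes, each starting at 0 with its own range) of the 6 genes in WT (blue) and Rest-/- (red) ESCs, with a circle for replicate 1, an open square for replicate 2 and a line for the mean of n = 2. Bdnf is the panel in which both Rest-/- points sit above both WT points, and Ntrk2 lies at 0 throughout.

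Bdnf encodes brain-derived neurotrophic factor, the ligand of TrkB. Its counts were 80 and 63 in WT against 166 and 105 in Rest-/- ESCs, or 2.58 and 2.35 CPM against 6.42 and 4.74 CPM. The lower Rest-/- library was thus above the higher WT library, and the Rest-/- libraries differed more from each other than the WT libraries did. The means were 2.47 ± 0.164 CPM in WT and 5.58 ± 1.19 CPM in Rest-/- ESCs (SD, n = 2). The log2 fold change was 1.18 (SE 0.32, 95% interval 0.33 to 2.02), and the adjusted p by edgeR's quasi-likelihood test with Benjamini-Hochberg adjustment was 0.584. Separated genotypes with a log2 fold change of at least 1 were seen in 3.14% of the genes tested, and the mirror image, lower in both Rest-/- libraries, in 1.88%.

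Ntf3 encodes neurotrophin 3, the ligand of TrkC. Its counts were 4 and 6 in WT against 4 and 3 in Rest-/- ESCs, or 0.129 and 0.224 CPM against 0.155 and 0.135 CPM. Every library was at or near the floor of 3 counts, the genotypes overlapped, and the gene did not pass the filter on low counts. In a fit without that filter its log2 fold change was -0.27 with an SE of 0.84, so that no difference was detectable at this depth.

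Ntrk2, the BDNF receptor TrkB, had 0 counts in all 4 libraries. The floor of 3 counts allows a level of up to 0.0969 CPM in the deepest library and 0.135 CPM in the shallowest. The RNA of the ligand Bdnf was therefore counted in every library and that of its preferred Trk receptor in none.

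Ntrk3, the neurotrophin 3 receptor TrkC, was counted 11 and 6 times in WT against 7 and 3 times in Rest-/- ESCs, or 0.355 and 0.224 CPM against 0.271 and 0.135 CPM. The genotypes overlapped and the gene was too low to be tested. The fit without a filter gave a log2 fold change of -0.50 with an SE of 0.75.

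Ngfr, which encodes the p75 receptor shared by all neurotrophins, had counts of 2094 and 1212 in WT against 1363 and 780 in Rest-/- ESCs. These were 67.6 and 45.3 CPM in WT and 52.8 and 35.2 CPM in Rest-/- ESCs, with means of 56.4 ± 15.8 and 44.0 ± 12.4 CPM (SD, n = 2). Replicate 1 was the higher library in both genotypes, and the higher Rest-/- library lay between the WT libraries. The log2 fold change was -0.36 (SE 0.31, 95% interval -1.17 to 0.45), with an adjusted p of 1.00 by edgeR's quasi-likelihood test. Replicates of a genotype thus lay further apart than the genotype means. The log2 fold change was -0.048 without WT replicate 1, -0.62 without WT replicate 2, -0.68 without Rest-/- replicate 1 and -0.10 without Rest-/- replicate 2. Leaving out 1 library also unbalances the replicate numbers between the genotypes. Between libraries of the same number, Rest-/- minus WT in log2(CPM + 0.5) was -0.36 for replicate 1 and -0.36 for replicate 2. The labels state no link between such libraries.

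Sort1 encodes sortilin, a sorting receptor of the VPS10 domain family and the partner of p75 in proneurotrophin binding. Its counts were 1175 and 1882 in WT against 1353 and 1784 in Rest-/- ESCs, or 38.0 and 70.3 CPM against 52.4 and 80.5 CPM. Here replicate 2 was the higher library in both genotypes, the reverse of Ngfr, and the genotypes overlapped. The means were 54.1 ± 22.8 and 66.5 ± 19.9 CPM (SD, n = 2), and the log2 fold change was 0.30 (SE 0.38, 95% interval -0.72 to 1.31), with an adjusted p of 1.00 by edgeR's quasi-likelihood test. Its sign depended on which library was left out, with -0.085 without WT replicate 1 and 0.81 without WT replicate 2. It was 0.58 without Rest-/- replicate 1 and -0.053 without Rest-/- replicate 2. Between libraries of the same number, a link that the labels do not state, Rest-/- minus WT was positive for both numbers. In log2(CPM + 0.5) it was 0.46 for replicate 1 and 0.20 for replicate 2. Sort1 shares 329 bp of exon with Gm12523 on the opposite strand, and reads from the overlap cannot be assigned where strand was not counted.

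**Figure D3:**
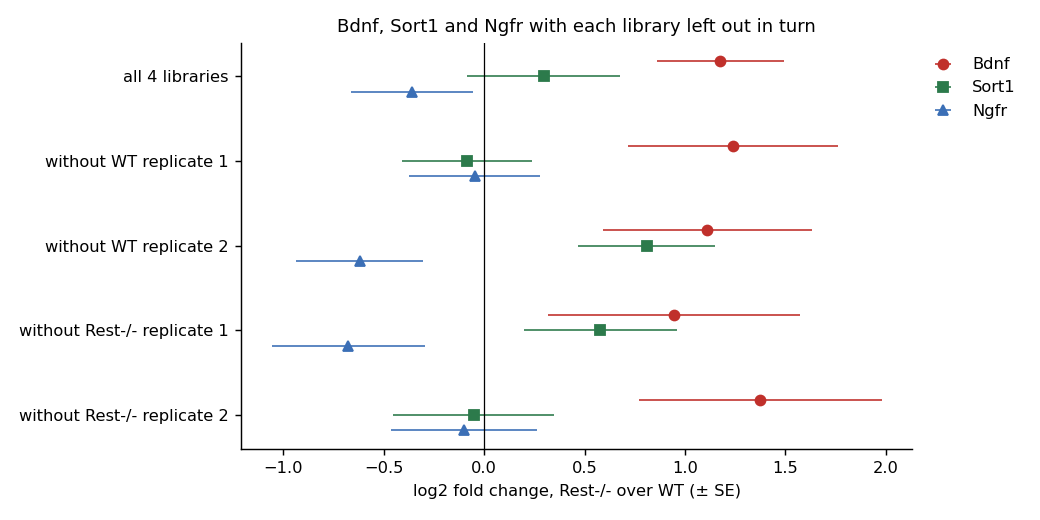
Log2 fold change of Rest-/- over WT (x axis, bars SE) for Bdnf, Sort1 and Ngfr with all 4 libraries and with each library left out in turn (rows). Bdnf stays between 0.94 and 1.37, Sort1 changes sign without WT replicate 1 or Rest-/- replicate 2, and Ngfr runs from -0.68 to -0.048.

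To compare levels between genes, CPM was divided by the length in kb of all annotated exons of each gene. In WT ESCs the order by level per length was Ngfr (16.4 ± 4.59 CPM per kb), Sort1 (7.16 ± 3.02), Bdnf (0.422 ± 0.028), Ntf3 (0.124), Ntrk3 (0.0553) and Ntrk2 at 0. The libraries of neighbours in this order did not overlap in WT, where Ngfr had 19.6 and 13.1 CPM per kb and Sort1 had 5.02 and 9.29. In Rest-/- ESCs the order of the mean levels per length was the same, with Ngfr at 12.8 ± 3.60, Sort1 at 8.79 ± 2.63, Bdnf at 0.954 ± 0.204, Ntf3 at 0.102 and Ntrk3 at 0.0388 CPM per kb (SD, n = 2). There the Ngfr libraries (15.3 and 10.2) overlapped the Sort1 libraries (6.93 and 10.7), so these neighbours did not differ beyond their spread. Ntf3 and Ntrk3 rest on 3 to 11 counts a library, and their order is not secure at that depth.

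The list of other ligands and receptors of the family held 9 genes. Ntf5, which encodes neurotrophin 4, is a further TrkB ligand, with a level per length of 1.43 and 2.55 CPM per kb in WT and 2.03 and 2.37 in Rest-/- libraries. This per-length level was above that of Bdnf in all 4 libraries.

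**Figure D4:**
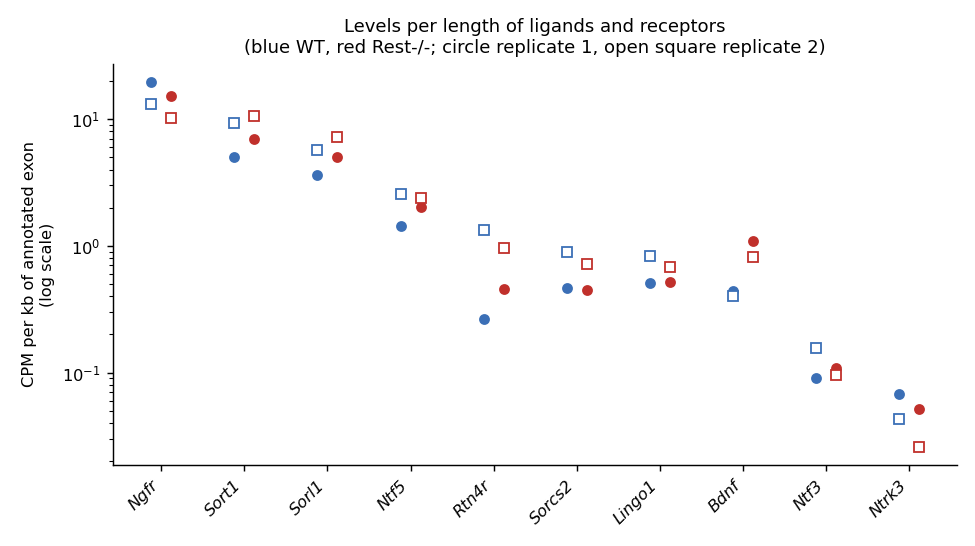
Level in CPM per kb of annotated exon (y axis, log scale) of ligands and receptors in order of the WT mean, with WT in blue, Rest-/- in red, circles for replicate 1 and open squares for replicate 2. The genes drawn are those named in the text, without Ntrk2, Sorcs1 and Sorcs3, and Bdnf is the gene whose Rest-/- points both sit above its WT points.

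In counts, Ntf5 had 87 and 134 in WT against 103 and 103 in Rest-/- ESCs (log2 fold change 0.15), and its genotypes overlapped. Of the sortilin relatives, Sorl1 had 1260 and 1728 counts against 1469 and 1806 (log2 fold change 0.40), with replicate 2 higher in both genotypes, as for Sort1. Sorl1 shares 185 bp of exon with Gm16214 on the opposite strand. Sorcs2, another VPS10 family receptor that binds proneurotrophins, had 126 and 211 counts against 102 and 139 (log2 fold change -0.22). Sorcs1 (2 and 6 counts against 7 and 2) and Sorcs3 (1 and 0 against 1 and 2) were too low to be tested. Rtn4r and Lingo1, which form the Nogo receptor complex with p75, had 16 and 69 counts against 23 and 41 (log2 fold change -0.17) and 62 and 87 counts against 53 and 59 (log2 fold change -0.15). Thus 0 of the 7 tested genes in the list had separated genotypes, beside 16.5% above and 15.4% below among all genes tested, and 0 passed the test, beside 0.0583%.

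The wider pathway was described with lists of the proteases that cleave proneurotrophins, the adaptors of p75 and the adaptors and effectors of the Trk receptors. With the ligands and receptors above, these lists held 67 genes, of which 57 were tested. Both Rest-/- libraries lay above both WT libraries for 10 of the 57 and below for 10, beside 16.5% and 15.4% of all genes tested. The median log2 fold change of the 57 genes was 0.011, against -0.0047 for all genes. By edgeR's quasi-likelihood test 0 of the 57 passed, and 1, Bdnf, had an unadjusted p under 0.05, beside 0.0583% and 6.71% of all genes. The edgeR exact test with tag-wise or common dispersion and DESeq2 also called 0 of the 57, beside 1.79%, 2.23% and 1.54% of all genes, and the replicate block called 10 (6 higher, 4 lower), beside 17%. Bdnf had the largest log2 fold change of the 57, and no other of the 57 tested genes had separated genotypes together with a log2 fold change of at least 1 in size.

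**Figure D5:**
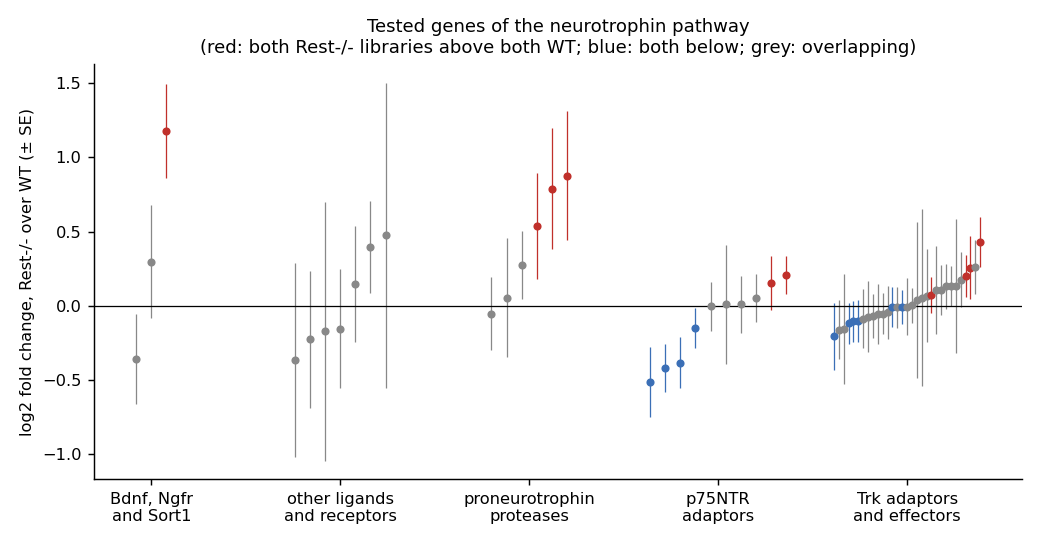
Log2 fold change of Rest-/- over WT (y axis, bars SE) for the 57 tested pathway genes, sorted within each list, with genes in red where both Rest-/- libraries were above both WT libraries, in blue where both were below and in grey where they overlapped. Bdnf is the red point at 1.18, above every other gene.

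The genes singled out in the following lists were chosen after their values were seen, mostly as those with separated genotypes. Of the 10 proteases, 6 were tested, with a median log2 fold change of 0.41, and 3 of the 6 had both Rest-/- libraries above both WT libraries, beside 16.5% of all genes tested. These were Plat, tissue plasminogen activator (2.39 and 3.66 CPM in WT against 4.84 and 3.93 in Rest-/- ESCs, log2 fold change 0.54, SE 0.36), Plau, urokinase (2.58 and 2.46 against 5.65 and 3.07, 0.79, SE 0.41) and Mmp9, a matrix metalloproteinase (2.36 and 4.89 against 6.46 and 6.82, 0.88, SE 0.43). Plat and Plau were highest in Rest-/- replicate 1, in which the feeder fibroblast markers summed to 121.6 CPM against 34.6 to 36.7 CPM in the other libraries, and Mmp9 was highest in Rest-/- replicate 2. The part of feeder cells in these values was not tested. Pcsk5, a convertase too low to be tested, had 12 and 10 counts in WT against 5 and 4 in Rest-/- ESCs. Furin, the main intracellular proneurotrophin convertase, had 1075 and 1521 counts against 862 and 1366, with overlapping genotypes and a log2 fold change of 0.054.

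All 10 p75 adaptors were tested, with a median log2 fold change of 0.0033. Both Rest-/- libraries were below both WT libraries for 4 of them, among which were Ngfrap1, Maged1 and Irak1, and above for 2, Zfp110 and Zfp369, beside 15.4% and 16.5% of all genes tested. Ngfrap1 and Maged1 encode proteins that bind p75, and Irak1 encodes a kinase recruited to it. Their log2 fold changes were -0.39, -0.42 and -0.51. These 3 genes lie on the X chromosome, where the median log2 fold change was -0.40 over 485 tested genes and 219 of them had both Rest-/- libraries below both WT libraries, beside 15.4% of all genes tested. The part of that chromosome-wide difference in these adaptor values was not tested. Zfp110 (log2 fold change 0.21) and Zfp369 (0.15) encode similar zinc finger proteins, so that reads may be split between them.

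Of the 32 Trk adaptors and effectors, 31 were tested and their median log2 fold change was -0.0055. Both Rest-/- libraries were above both WT libraries for 4 and below for 6, beside 16.5% and 15.4% of all genes tested. Shc1, the adaptor that links Trk receptors to Ras, had the largest difference in size, with 117 and 144 CPM in WT and 162 and 189 CPM in Rest-/- libraries and a log2 fold change of 0.43 (SE 0.17). The lowest was Frs3, an adaptor that binds activated Trk receptors, with a log2 fold change of -0.21.

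Markers of other cell types were summed in each library beside these results. The 10 neuron markers summed to 251 and 282 CPM in WT and 373 and 392 CPM in Rest-/- ESCs, separated between genotypes. Several of them are known REST targets, and the part of REST in their values was not tested. Elavl3, Nefl, Nefm and Snap25 carried the difference in the sum. Tubb3, the most abundant neuron marker, had overlapping genotypes and a log2 fold change of 0.012, with 0.021 for Map2 and -0.11 for Gap43. The 10 primitive endoderm markers summed to 258 and 429 CPM in WT and 521 and 629 CPM in Rest-/- ESCs, also separated. Both Rest-/- libraries lay above both WT libraries for 7 of these 10 genes and for 6 of the 9 tested neuron markers. Among all genes tested the share was 16.5%. The 10 feeder fibroblast markers, of which Lum was at 0 in every library, summed to 36.7 and 36.1 CPM in WT and to 121.6 and 34.6 CPM in Rest-/- ESCs, so that Rest-/- replicate 1 stood apart. That library also had the highest Bdnf level. Rest-/- replicate 2 had the lowest fibroblast sum and 4.74 CPM of Bdnf, and the log2 fold change of Bdnf without Rest-/- replicate 1 was 0.94. The neural crest markers, of interest because crest cells carry p75, summed to 119 and 98.3 CPM in WT and 103 and 79.1 CPM in Rest-/- ESCs, with replicate 1 higher in both genotypes. That order came from Erbb3 (83.2 and 72.2 CPM in WT, 61.1 and 51.6 in Rest-/- ESCs) and Foxd3 (25.5 and 10.5, 23.5 and 10.1), while Ets1 ran the other way (4.39 and 10.7, 11.4 and 13.0). The neural progenitor markers summed to 67.2 and 163 CPM in WT and 134 and 157 CPM in Rest-/- ESCs. Most of that sum was Nes (50.2 and 145 CPM in WT, 124 and 148 in Rest-/- ESCs), whereas Olig2 had 158 and 172 counts in WT against 1 and 0, and Pax6 had a log2 fold change of -0.75 with both Rest-/- libraries below both WT libraries. None of these 5 lists held a gene past edgeR's adjusted threshold, which 0.0583% of all genes tested passed. At an unadjusted p under 0.05, called for 6.71% of all genes, edgeR's quasi-likelihood test called 4 of 10 pluripotent cell markers, 4 of 9 tested neuron markers, 3 of 10 primitive endoderm markers, 1 of 8 neural crest markers, 1 of 5 neural progenitor markers (Olig2, lower) and 0 of 8 fibroblast markers. The part of these cell types in the neurotrophin values was not tested.

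For each tested member, the 3 genes with the most similar profile over the 4 libraries were found by Euclidean distance between centred log2(CPM + 0.5) values. This likeness is a description over 4 points. Nearest to Bdnf were Nostrin (distance 0.0268), with 4 and 2 counts in WT against 23 and 12 in Rest-/- ESCs and a log2 fold change of 2.75, Chrd (0.0898), with 89 and 72 against 172 and 118, and Procr (0.0906), with 103 and 75 against 209 and 134. At counts as low as those of Nostrin the added 0.5 shrinks the profile, so its small distance does not mean an equal fold change. In each of the 3 genes Rest-/- replicate 1 was highest, and 39 genes in all lay within a distance of 0.25 of Bdnf. Nearest to Ngfr were Tpcn2 (0.0316), Dnase1l1 (0.0443) and Lrrc2 (0.0540), among 443 genes within 0.25. Nearest to Sort1 were Bahcc1 (0.0151), Ptprf (0.0280) and BC067074 (0.0587), among 274 genes. The profiles of Ngfr and Sort1, which differ between replicates in both genotypes, were thus shared by many more genes than that of Bdnf.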

How the data were processed

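The authors extracted total RNA, prepared TruSeq libraries, aligned the reads to mm9 with Subread and counted them per gene with featureCounts, per the labels. The annotation version and the strand setting are not given in the sources used here, so a gene and its antisense partner cannot be told apart. They deposited raw counts per gene. A further 368 rows had no identifier and no values and were left out.

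From the counts, WT and Rest-/- ESCs were compared in R 4.3.3 with edgeR 4.0.16 (TMM scaling, filterByExpr, quasi-likelihood test, prior count 0.125, Benjamini-Hochberg adjusted p under 0.05). The test was checked on simulated counts for this comparison, where 100% of 200 genes changed by a log2 of 2 were recovered among 15276 genes and 3.85% of the calls were false. The simulated counts had the same dispersion for every gene and no shift shared by replicates, and only genes above a count cut were changed. A log2 change of 2 is larger than any seen in the members. Neither the recovery nor the share of false calls carries over to the real counts. There, genes with larger differences, such as Snap25 (log2 fold change 3.98, adjusted p = 0.109 by edgeR's quasi-likelihood test), were not called. The exact test, DESeq2 1.42.0, other scalings and filters, a replicate block and leaving out each library were alternatives. Gene positions, transcripts and exon lengths came from GENCODE M1 on mm9. RefSeq gene names matched 24191 identifiers, and 11 listed genes were found by identifier under an older symbol.

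Genes were named by rule: all 6 members, the other ligands and receptors, any pathway or GDNF family gene with separated genotypes and a log2 fold change of at least 1 in size, and the 3 nearest profiles of each tested member. Further pathway genes were named after their values were seen, as stated beside them. Some listed genes count in the totals but are not reported here by name. The members and lists were chosen with earlier results of these data known.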

Additional observations from a re-analysis of the deposited data

How the results depend on the processing

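The number of genes called, 9 in the comparison as reported, was 53 (49 higher, 4 lower) without the filter on low counts, 3 with at least 10 counts in every library, 277 (206 and 71) and 344 (247 and 97) by the edgeR exact test (tag-wise, then common dispersion), and 238 (180 and 58) by DESeq2. Leaving out 1 library gave 60 to 113, the lone library being assumed to vary like the other genotype. In 12 of 13 alternatives 0 members were called. The exception was the replicate block, with 2621 genes (1308 and 1313, 17% of those tested), 3 members and 10 pathway genes (6 higher, 4 lower). Under that block the log2 fold change was 1.17 for Bdnf (adjusted p = 0.0106), -0.36 for Ngfr (0.0111) and 0.33 for Sort1 (0.0293), by edgeR's quasi-likelihood test. The labels state no link between replicates of the same number. The difference between replicates 1 and 2 correlated between genotypes (Pearson r = 0.81 across 15444 genes, which are not independent), a hint from 2 pairs that does not establish pairing. Leaving out 1 library gave 0.94 to 1.37 for Bdnf, -0.68 to -0.048 for Ngfr and -0.085 to 0.81 for Sort1, which turned negative without WT replicate 1 (-0.085) or Rest-/- replicate 2 (-0.053). In the other 9 settings Bdnf lay between 1.15 and 1.19, with adjusted p by edgeR or DESeq2 of 0.183 to 0.673. With the longest transcript as length, the WT level was 0.579 CPM per kb for Bdnf and 0.0878 for Ntrk3. The number of members with a motif match was 1 with 1 mismatch, 1 with 2 mismatches and 1 with 1 mismatch within 1 kb, the last 2 settings chosen after seeing the data. The causes were not tested. Depth limits Ntf3, Ntrk2 and Ntrk3, which had at most 11 counts in a library.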

Other observations

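The GDNF family, a separate group of neuronal growth factors whose ligands signal through the Ret kinase and a GFRα co-receptor, was also measured. Of its 9 genes, 7 were tested. By edgeR's quasi-likelihood test 0 of the 7 passed and 0 had an unadjusted p under 0.05, beside 0.0583% and 6.71% of all genes. The median log2 fold change was -0.032, and both Rest-/- libraries lay below both WT libraries for 2 of the 7, beside 15.4% of all genes tested. These were Gfra1, the co-receptor for GDNF, with 53 and 105 counts in WT against 40 and 36 in Rest-/- ESCs (log2 fold change -0.82, SE 0.51), and Gfra4, the co-receptor for persephin, with 31 and 20 against 13 and 14 (log2 fold change -0.63, SE 0.43). Both were singled out after their values were seen. Ret had 93 and 109 counts against 97 and 82, a log2 fold change of 0.077. Gdnf, with 3 and 2 counts against 2 and 1, was at or under the floor of 3 counts in every library, and Gfra3 was too low to be tested.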
